A study of Mus musculus with 8 samples.

Results

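The expression of 10 matricellular and related matrix genes was followed through a mouse heart experiment that crossed a Piezo1 genotype with pressure overload. The members were the rows of the deposited table whose gene symbol was Postn, Tnc, Thbs1, Thbs2, Thbs3, Thbs4, Spp1, Sparc, Sparcl1 or Fn1, which gave 10 genes of the 54532 listed. All 10 passed the filter on low values, at least 0.5 FPKM and 10 reads in at least 2 libraries, which left 13928 genes to test. FPKM counts fragments per kilobase of gene and scales them to a library size, here one adjusted between samples. It can be set side by side between genes, and between libraries as far as that scaling holds.

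Matricellular proteins are secreted into the extracellular matrix, where they act on cells through surface receptors and bind growth factors and proteases more than they bear load. In the healthy adult heart most are scarce, and after injury or overload they appear in the interstitium, made largely by fibroblasts, macrophages and vascular cells. Fibronectin, also followed here, is a structural adhesive protein of the provisional matrix to which several of them bind.

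The hearts came from C57BL/6 mice in 4 groups of 2 libraries: wild type with sham surgery (WT sham), wild type with TAC (WT TAC), Piezo1-Cko with sham surgery (Cko sham) and Piezo1-Cko with TAC (Cko TAC). TAC commonly abbreviates transverse aortic constriction, in which a band narrows the aortic arch and raises the pressure against which the left ventricle pumps. Piezo1 encodes a mechanically gated cation channel. The labels give no Cre driver, deleted exons or target cells for Piezo1-Cko, and no age, sex or time after surgery. Nor do they state whether 2 libraries of a group were 2 animals, so p-values reflect the spread among these samples alone, and that spread may be technical.

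Whole reads recovered from the FPKM values summed to 15574769 to 17313084 per library. The Piezo1 gene total was 2.35 and 3.09 FPKM in WT sham, 3.83 and 3.23 in Cko sham, 5.38 and 5.83 in WT TAC, and 5.24 and 3.89 in Cko TAC. Between genotypes it did not pass the test (log2 fold change 0.33 under sham, adjusted p = 0.774, and -0.28 under TAC, adjusted p = 0.652). Reads from intact exons and untargeted cells enter this total, so it is no check of genotype. All 10 cardiomyocyte markers were measured, and they summed to 23391 to 24822 FPKM in the sham libraries and 14494 to 17713 in the TAC libraries. Macrophage markers summed to 442 to 510 FPKM in sham and 674 to 1058 in TAC, and 10 of 10 were higher with TAC averaged over genotypes, as were 11.9% of all tested genes. Their part in the results on the members was not tested. In RNA of heart tissue, a change in the number of cells of a type and a change in RNA per cell cannot be told apart.

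WT sham replicate 1 and WT TAC replicate 1 stood apart from the other 6 libraries in tissue markers. The 6 tendon, valve and cartilage markers summed to 53.3 and 66.5 FPKM in them and to 3.09 to 6.71 elsewhere, led by the collagen-binding proteoglycan Fmod at 32.0 and 46.5 FPKM against 0.405 to 1.12. Not all of the list followed: Acan was at 0.0659 and 0.655 FPKM in them, beside 0.0437 to 0.643 in the other 6. Chad was at 9.25 FPKM in WT sham replicate 1 but 0.576 in WT TAC replicate 1, beside 0 to 0.304 in the other 6. WT sham replicate 1 also held atrial transcripts: Myl7, the atrial myosin light chain, was at 394 FPKM there and at most 0.443 elsewhere, and Sln was at 43.6 FPKM there and listed at 0 elsewhere. Of the other atrial markers, Myl4 was at 40.4 FPKM there and at most 1.12 elsewhere, Bmp10 was listed at 0 in all 8 libraries, and Nppa, which stressed ventricles also express, was at 112 FPKM there. All 5 summed to 590 FPKM in WT sham replicate 1, 98.9 to 117 in the other sham libraries and 516 to 1856 in the TAC libraries, where Nppa alone was at 515 to 1855. WT TAC replicate 1 held immunoglobulin transcripts, with B and plasma cell markers summing to 308 FPKM against 12.0 to 35.9 elsewhere. Several members were high in these same libraries, so values without them accompany many of the results.

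Upstream sequence was taken from the RefSeq promoter table (GRCm38.p6), which matched 7 of the 10 members: Postn, Tnc, Thbs2, Thbs3, Thbs4, Spp1 and Sparc. Thbs1, Sparcl1 and Fn1 were not matched. The 250 bases before the start site are printed for the 4 matched members with the largest log2 fold change with TAC averaged over genotypes, Spp1, Tnc, Postn and Thbs4. They lie at chr3:54360857-54361106 on the plus strand for Postn, chr4:64047016-64047265 on the minus strand for Tnc, chr13:92794819-92795068 on the minus strand for Thbs4, and chr5:104434861-104435110 on the plus strand for Spp1. Each is written 5′ to 3′ on the strand of its gene, with matches to the motifs searched in capitals.
Postn: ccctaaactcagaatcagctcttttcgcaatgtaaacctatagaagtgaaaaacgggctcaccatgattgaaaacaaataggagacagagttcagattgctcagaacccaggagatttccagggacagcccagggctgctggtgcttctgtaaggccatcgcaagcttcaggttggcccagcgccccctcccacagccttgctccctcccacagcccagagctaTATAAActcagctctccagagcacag
Tnc: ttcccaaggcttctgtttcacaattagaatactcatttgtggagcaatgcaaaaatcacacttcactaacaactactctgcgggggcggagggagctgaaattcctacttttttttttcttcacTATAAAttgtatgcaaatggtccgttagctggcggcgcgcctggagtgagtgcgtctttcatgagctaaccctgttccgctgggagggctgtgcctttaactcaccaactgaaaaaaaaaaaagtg
Thbs4: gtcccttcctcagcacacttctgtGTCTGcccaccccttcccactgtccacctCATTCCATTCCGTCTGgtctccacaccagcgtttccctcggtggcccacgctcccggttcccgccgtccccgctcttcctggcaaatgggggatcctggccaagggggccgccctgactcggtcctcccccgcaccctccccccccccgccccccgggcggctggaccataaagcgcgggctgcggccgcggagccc
Spp1: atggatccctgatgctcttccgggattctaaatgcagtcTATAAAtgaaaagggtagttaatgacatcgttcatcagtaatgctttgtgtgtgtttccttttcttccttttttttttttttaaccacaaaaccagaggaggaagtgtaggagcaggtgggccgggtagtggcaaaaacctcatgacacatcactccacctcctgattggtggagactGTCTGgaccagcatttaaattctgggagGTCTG
Both strands were searched for 5 motifs: TGANTCA, bound by AP-1, GGAATG, bound by TEAD factors, CAGAC, which contains the core bound by SMAD proteins, TATAAA, the core of the TATA box, and the CArG box of serum response factor. In the Postn window the capitals mark TATAAA, whose first base lies at -26, where -1 is the base before the start site. The capitals in the Tnc window mark TATAAA at -126. The Thbs4 window held GGAATG on the opposite strand at -197 and -192, which overlap, and CAGAC on the opposite strand at -226 and -186. Spp1 had TATAAA at -211 and CAGAC on the opposite strand at -33 and -5. Of 32851 windows of the same length, 12.4% held TATAAA, 12.6% GGAATG, 42.2% CAGAC, 6.75% TGANTCA and 1.47% a CArG box. The last pair of motifs had no match in any of the 7 windows, and Thbs3 had no match to any motif. These matches describe letters in the window and are not measured binding.

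The members spanned a wide range of levels. Sparc and Sparcl1, a pair of related collagen-binding glycoproteins, were the 2 highest members in every group and together made up 81.9% to 95.7% of the summed FPKM of the 10 members in the sham libraries and 68.1% to 88.6% in the TAC libraries. Postn was the third by group mean in every group, and in each its libraries overlapped those of the next member. By group mean, Tnc was lowest in sham hearts of both genotypes, and Thbs3 was lowest in TAC hearts of both. In wild type these ranks were not clear-cut, as Tnc overlapped Spp1 in WT sham and Thbs3 overlapped Tnc in WT TAC. Sparc and Sparcl1 overlapped in both sham groups, while Sparc was above Sparcl1 in every TAC library. Many neighbours lower in the order overlapped: in WT TAC, each of Postn, Thbs4, Fn1 and Thbs1 overlapped the next in that order, and in Cko TAC so did each of Postn, Spp1, Fn1, Thbs4, Thbs1 and Tnc.

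**Figure D1:**
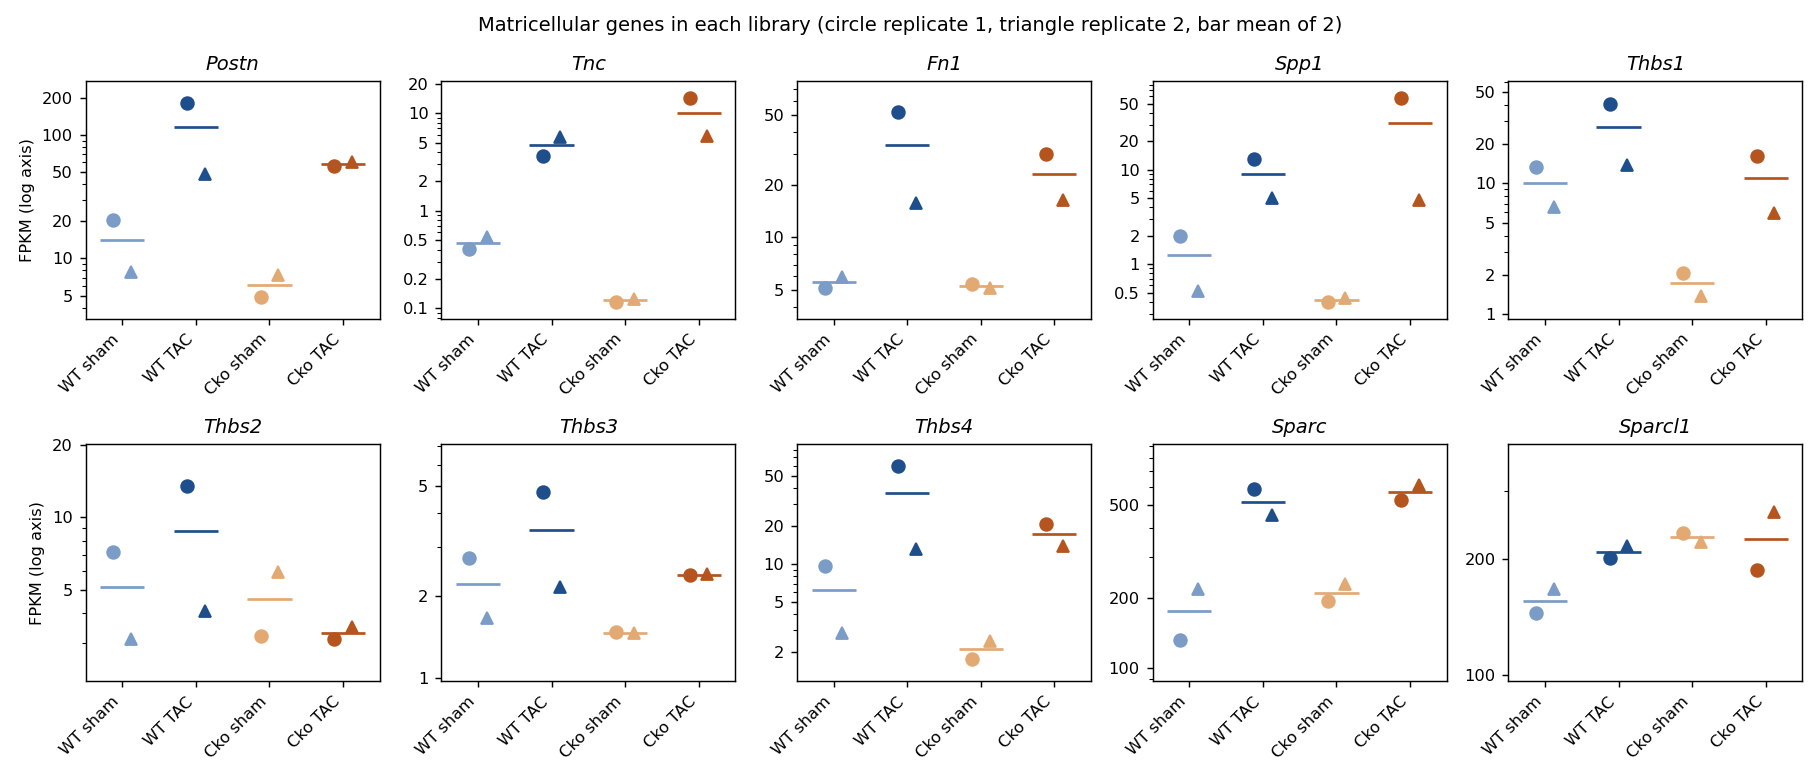
FPKM (log axis, a different range in each panel) of each of the 10 members in the 8 libraries, by group; circles are replicate 1, triangles replicate 2 and bars the mean of the 2. Every TAC library lies above every sham library for Postn, Tnc, Fn1, Spp1, Thbs4 and Sparc, and not for Thbs1, Thbs2, Thbs3 and Sparcl1.

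**Figure D2:**
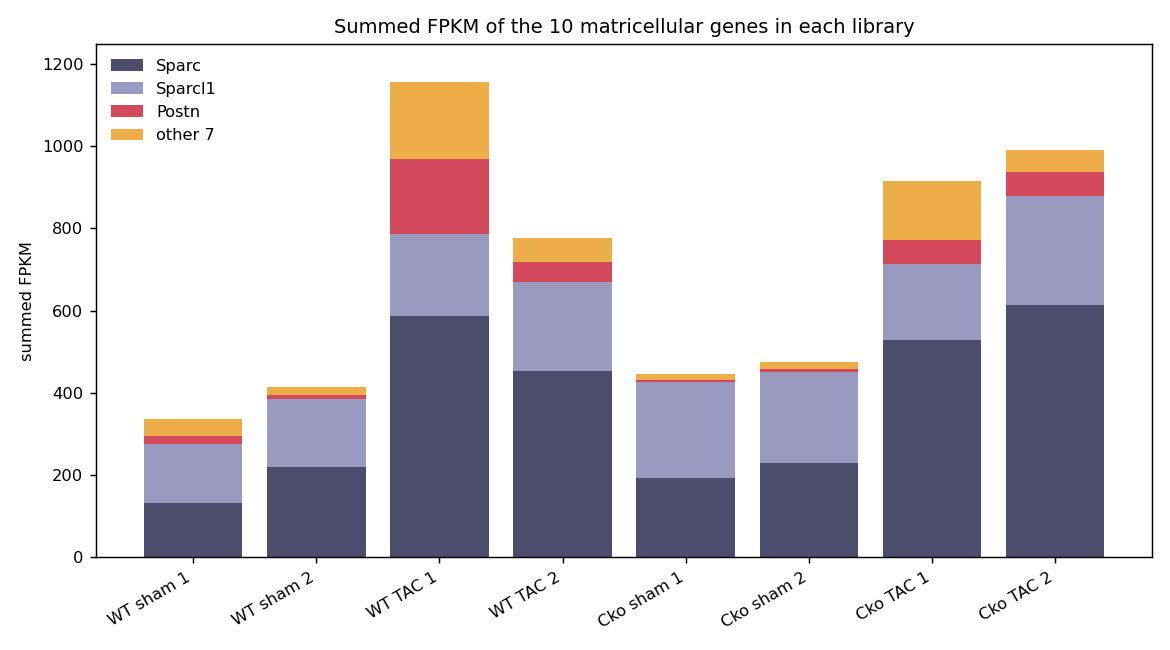
Summed FPKM of the 10 members in each library, stacked as Sparc, Sparcl1, Postn and the other 7. The sum was 337 to 475 FPKM in the 4 sham libraries and 777 to 1156 in the 4 TAC libraries, and Sparc takes a larger part of it than Sparcl1 in each TAC library.

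The first comparison asked what TAC changed, averaged over both genotypes, 4 libraries against 4. Of the 10 members, 7 were higher with TAC and none lower (limma, Benjamini-Hochberg adjusted p under 0.05), where 11.9% of all tested genes were higher. The 7 were Postn, Tnc, Thbs1, Thbs4, Spp1, Sparc and Fn1. In 6 of them, all but Thbs1, every TAC library lay above every sham library, which held for 13.1% of all tested genes in that direction. The median log2 fold change of the 10 members was 1.94, beside 0.01 over all genes. All fold changes were taken of FPKM + 0.5 on a log2 scale, so those of scarce genes such as Tnc and Spp1 come out smaller than the ratio of their FPKM.

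Postn encodes periostin, a fasciclin-domain protein that promotes collagen cross-linking and marks activated cardiac fibroblasts (ENSMUSG00000027750, GRCm38 chromosome 3, 54361109 to 54391037, plus strand). It was at 20.3 and 7.82 FPKM in WT sham, 4.88 and 7.29 in Cko sham, 182 and 48.3 in WT TAC, and 56.4 and 60.4 in Cko TAC. The lowest TAC library was 2.38 times the highest sham library, and replicate 1 was the high library in both wild-type groups. With TAC it rose 8.08-fold averaged over genotypes (log2 fold change 3.01, SE 0.444, adjusted p = 0.00625). In wild type the log2 fold change was 2.84 (SE 0.627, adjusted p = 0.0320), and in Piezo1-Cko 3.18 (SE 0.627, adjusted p = 0.0547), just short of the threshold. With limma-voom on the reads the wild-type value was 2.89 (adjusted p = 0.0622), not past it. Without WT sham replicate 1 and WT TAC replicate 1 together, the averaged value was 2.87, that of wild type was 2.55 and that of Piezo1-Cko kept its 3.18. With 1 library left in each wild-type group, that fit takes its spread from the Piezo1-Cko groups alone.

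Tnc encodes tenascin C, a hexameric glycoprotein that loosens adhesion and is nearly absent from the resting adult heart (ENSMUSG00000028364, chromosome 4, 63959785 to 64047015, minus strand). It was at 0.407 and 0.535 FPKM in WT sham, 0.118 and 0.126 in Cko sham, 3.66 and 5.74 in WT TAC, and 14.2 and 5.89 in Cko TAC. The Cko sham values rest on 14 and 15 reads and the Cko TAC values on 2035 and 791. Both Cko sham libraries were below both WT sham libraries, and both Cko TAC libraries were above both WT TAC libraries. Tnc rose with TAC in both genotypes, by a log2 fold change of 2.39 in wild type (SE 0.375, adjusted p = 0.0172) and 3.96 in Piezo1-Cko (SE 0.375, adjusted p = 0.0230). By p-value it ranked 5 among all tested genes in Piezo1-Cko and 238 in wild type. With no pseudocount the mean FPKM was 9.98 times higher with TAC in wild type and 82.5 times higher in Piezo1-Cko. The averaged log2 fold change was 3.18 (SE 0.265, adjusted p = 0.00185), and it moved with the treatment of low values, to 2.56 with a pseudocount of 1 FPKM and 4.73 with limma-voom on the reads.

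Fn1 encodes fibronectin (ENSMUSG00000026193, chromosome 1, 71585520 to 71653200, minus strand). It was at 5.17 and 5.92 FPKM in WT sham, 5.43 and 5.15 in Cko sham, 51.9 and 15.7 in WT TAC, and 29.9 and 16.3 in Cko TAC. The 4 sham libraries lay close together, and the TAC libraries lay all above them but far apart from each other. Fn1 rose 4.34-fold with TAC averaged over genotypes (log2 fold change 2.12, SE 0.357, adjusted p = 0.00854). It rose in wild type (2.27, adjusted p = 0.0324), and in Piezo1-Cko the log2 fold change was 1.96 (adjusted p = 0.0848). The annotation lists 17 Fn1 transcripts, and a gene total does not separate the spliced forms that carry the extra domains of cellular fibronectin.

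Spp1 encodes osteopontin, a phosphoprotein that binds integrins and CD44 and is made by activated macrophages among other cells (ENSMUSG00000029304, chromosome 5, 104435118 to 104441050, plus strand). It was at 1.96 and 0.513 FPKM in WT sham, 0.396 and 0.436 in Cko sham, 13.0 and 5.02 in WT TAC, and 58.1 and 4.81 in Cko TAC. All TAC libraries were above all sham libraries, but Cko TAC replicate 1 was far above the other 7. Spp1 rose 10.3-fold averaged over genotypes (log2 fold change 3.36, SE 0.726, adjusted p = 0.0175), with the largest error among the members. Neither genotype passed alone, with 2.45 in wild type (adjusted p = 0.143) and 4.27 in Piezo1-Cko (adjusted p = 0.0785). Without Cko TAC replicate 1 the averaged value was 2.49 (adjusted p = 0.0212) and that of Piezo1-Cko 2.54 (adjusted p = 0.237). The averaged call was lost without WT sham replicate 2 (adjusted p = 0.0637), Cko sham replicate 1 (adjusted p = 0.0698) or Cko sham replicate 2 (adjusted p = 0.0673), and with limma-voom on the reads (adjusted p = 0.257), where the sham values rest on 10 to 46 reads. It was also lost with no filter (adjusted p = 0.0528) and with replicate 1 of WT sham and of WT TAC both left out (3.36, adjusted p = 0.0771).

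The 4 thrombospondin genes did not move alike. Thrombospondins are calcium-binding glycoproteins: Thbs1 and Thbs2 encode trimers that restrain angiogenesis, and Thbs1 can activate latent TGF-beta, while Thbs3 and Thbs4 encode pentamers. Thbs4 (ENSMUSG00000021702, chromosome 13, 92751590 to 92794818, minus strand) was at 9.73 and 2.85 FPKM in WT sham, 1.77 and 2.48 in Cko sham, 59.9 and 13.2 in WT TAC, and 20.9 and 13.9 in Cko TAC. Replicate 1 was the high library in both wild-type groups, as for Postn, and every TAC library was above every sham library. Thbs4 rose 5.77-fold averaged over genotypes (log2 fold change 2.53, SE 0.514, adjusted p = 0.0143), with 2.30 in wild type (adjusted p = 0.0746) and 2.76 in Piezo1-Cko (adjusted p = 0.0893), neither past the threshold. Its averaged call was lost without Cko sham replicate 1 (adjusted p = 0.0601) or Cko TAC replicate 1 (adjusted p = 0.0537), and with limma-voom (adjusted p = 0.0615). With WT sham replicate 1 and WT TAC replicate 1 both left out the averaged value was 2.40, in a fit that takes its spread from the Piezo1-Cko groups alone. Without WT TAC replicate 1 alone, the wild-type value was 1.23 (adjusted p = 0.267).

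Thbs1 (ENSMUSG00000040152, chromosome 2, 118111876 to 118127133, plus strand) was at 13.4 and 6.59 FPKM in WT sham, 2.07 and 1.39 in Cko sham, 40.4 and 13.8 in WT TAC, and 16.1 and 5.94 in Cko TAC. Within each genotype both TAC libraries were above both sham libraries, but Cko TAC replicate 2 lay below both WT sham libraries. Thbs1 rose 3.37-fold averaged over genotypes (log2 fold change 1.75, SE 0.431, adjusted p = 0.0256), with 1.28 in wild type (adjusted p = 0.184) and 2.23 in Piezo1-Cko (adjusted p = 0.0963). Without WT TAC replicate 1 the wild-type value was 0.52 (adjusted p = 0.629). It lost its averaged call under 7 of 17 alternatives, the most among the 7 members called. These were the fits without WT sham replicate 2 (adjusted p = 0.0786), WT TAC replicate 1 (adjusted p = 0.0545), Cko sham replicate 1 (adjusted p = 0.0667), Cko sham replicate 2 (adjusted p = 0.0851) or Cko TAC replicate 1 (adjusted p = 0.0778). It was also lost with no filter (adjusted p = 0.0727) and with limma-voom (adjusted p = 0.0743).

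Thbs2 (ENSMUSG00000023885, chromosome 17, 14665500 to 14694235, minus strand) was at 7.19 and 3.12 FPKM in WT sham, 3.21 and 5.91 in Cko sham, 13.5 and 4.09 in WT TAC, and 3.11 and 3.51 in Cko TAC. The groups overlapped in both genotypes. Its averaged log2 fold change was 0.12 (95% interval -0.80 to 1.05, adjusted p = 0.839), and that of wild type went from 0.60 to -0.20 without WT TAC replicate 1. Thbs3 (ENSMUSG00000028047, chromosome 3, 89215180 to 89226837, plus strand) was at 2.76 and 1.67 FPKM in WT sham, 1.48 and 1.46 in Cko sham, 4.77 and 2.16 in WT TAC, and 2.37 and 2.40 in Cko TAC. Both Cko TAC libraries were above both Cko sham libraries, and the wild-type groups overlapped. Its averaged log2 fold change was 0.52 (95% interval -0.01 to 1.06, adjusted p = 0.131), and that of wild type went from 0.50 to 0.00 without WT TAC replicate 1. Thbs3 overlaps Mtx1 on the opposite strand, which held 211 to 382 reads beside 108 to 428 for Thbs3, and whether reads were counted by strand is not given in the sources used here.

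Sparc encodes SPARC or osteonectin, which binds collagen and takes part in its assembly into fibrils (ENSMUSG00000018593, chromosome 11, 55394500 to 55423183, minus strand). It was at 132 and 219 FPKM in WT sham, 194 and 229 in Cko sham, 586 and 454 in WT TAC, and 528 and 614 in Cko TAC. The lowest TAC library was 1.98 times the highest sham library. Sparc rose with TAC averaged over genotypes (log2 fold change 1.52, SE 0.184, adjusted p = 0.00404), in wild type (1.60, SE 0.261, adjusted p = 0.0177) and in Piezo1-Cko (1.43, SE 0.261, adjusted p = 0.0488). Sparcl1 encodes its relative SPARC-like protein 1 (ENSMUSG00000029309, chromosome 5, 104079111 to 104113733, minus strand). It was at 145 and 167 FPKM in WT sham, 234 and 221 in Cko sham, 201 and 215 in WT TAC, and 186 and 264 in Cko TAC. WT sham was the low group, both WT TAC libraries lay below both Cko sham libraries, and the Cko TAC pair lay on either side of both. Its averaged log2 fold change was 0.19 (95% interval -0.12 to 0.50, adjusted p = 0.314), with 0.42 in wild type (adjusted p = 0.164) and -0.03 in Piezo1-Cko (adjusted p = 0.935). Within a library, Sparc was 0.829 to 1.31 times the level of Sparcl1 in the 4 sham libraries and 2.11 to 2.92 times in the 4 TAC libraries.

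In wild type alone, 4 members passed the test as higher with TAC (Postn, Tnc, Sparc and Fn1), where 5.57% of all tested genes were higher, and limma-voom called 3 of them, all but Postn. In 8 members, all but Thbs2 and Thbs3, both WT TAC libraries lay above both WT sham libraries, which held for 31.3% of all tested genes. In Piezo1-Cko alone, Tnc and Sparc passed, where 0.948% of all tested genes were higher. In 8 members, all but Thbs2 and Sparcl1, both Cko TAC libraries lay above both Cko sham libraries, beside 28% of all tested genes. The median log2 fold change of the 10 members was 1.94 in wild type and 2.10 in Piezo1-Cko, beside 0.01 and 0.00 over all genes.

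Each of these 6 single-genotype calls was lost in at least 1 of the fits that left out a library, in several cases with little change in the fold. Without WT TAC replicate 1 none of the 4 wild-type calls held, with adjusted p of 0.106 for Postn, 0.0596 for Tnc, 0.0840 for Sparc and 0.0875 for Fn1, and the log2 fold changes were then 1.89, 2.69, 1.41 and 1.43. Without WT sham replicate 1 only Sparc passed (adjusted p = 0.0494), and without WT sham replicate 2 likewise (adjusted p = 0.0396). Postn and Fn1 also lost their wild-type calls without Cko sham replicate 1 (adjusted p = 0.0611 and 0.0642) or Cko sham replicate 2 (adjusted p = 0.0624 and 0.0653), where their fold changes stay as they were and the shared spread is estimated from 7 libraries. In Piezo1-Cko, Tnc and Sparc lost their calls without Cko sham replicate 1 (adjusted p = 0.226 and 0.293) or Cko sham replicate 2 (adjusted p = 0.131 and 0.188). Their log2 fold changes hardly moved in those fits, at 3.95 and 3.97 for Tnc and 1.31 and 1.55 for Sparc. With limma-voom Tnc was at 6.18 in Piezo1-Cko with an adjusted p of 0.0503. Sparc also lost its call without Cko TAC replicate 1 (adjusted p = 0.202) or Cko TAC replicate 2 (adjusted p = 0.0803). Without WT TAC replicate 1, Postn (adjusted p = 0.0264), Thbs4 (adjusted p = 0.0441) and Fn1 (adjusted p = 0.0280) joined them in Piezo1-Cko, and the same 3 passed without WT TAC replicate 2 (adjusted p = 0.0262, 0.0443 and 0.0273). Spp1 passed in wild type without Cko TAC replicate 1 (adjusted p = 0.0332) or Cko TAC replicate 2 (adjusted p = 0.0326) and in Piezo1-Cko without Cko TAC replicate 2 (adjusted p = 0.0258), and Thbs4 in wild type without WT TAC replicate 2 (adjusted p = 0.0237). Averaged over genotypes, Postn, Tnc, Sparc and Fn1 passed whichever 1 of the 8 libraries was left out, and Thbs3 joined the called members without WT TAC replicate 2 (adjusted p = 0.0223). With replicate 1 of WT sham and of WT TAC left out together, the averaged value was 3.28 for Tnc, 1.65 for Fn1, 1.24 for Sparc and 1.62 for Thbs1. In wild type, with 1 library left in each group, it was then 2.59 for Tnc, 1.34 for Fn1 and 1.05 for Sparc. In both comparisons the lone libraries are assumed to vary like the Piezo1-Cko groups, so p-values of that fit do not measure the spread in wild type.

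**Figure D3:**
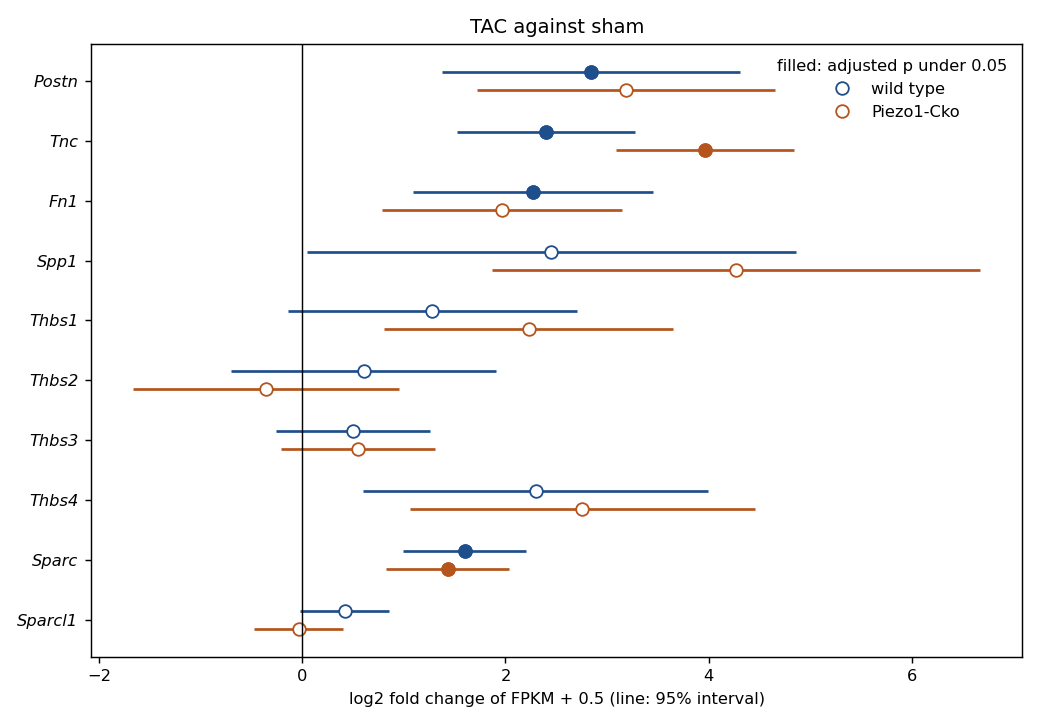
Log2 fold change of FPKM + 0.5 with TAC against sham for each member, in wild type (blue) and Piezo1-Cko (orange), 2 libraries against 2 in each; lines are 95% intervals and filled points have an adjusted p under 0.05. Postn, Tnc, Fn1 and Sparc are filled in wild type, Tnc and Sparc in Piezo1-Cko, and the intervals of the genotypes overlap for every member.

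The next question was whether the members differed between Piezo1-Cko and wild type. Under sham, 0 of 10 members passed, where 0.0215% of all tested genes did, 2 members and 1069 genes had an unadjusted p under 0.05, and limma-voom called 0 members. In 6 members, Postn, Tnc, Thbs1, Thbs3, Thbs4 and Spp1, both Cko sham libraries lay below both WT sham libraries, beside 20.3% of all tested genes. In 1 member, Sparcl1, they lay above, beside 19.3% of all tested genes. The largest difference was that of Thbs1, at -2.17 (SE 0.609, adjusted p = 0.489), followed by Thbs4 at -1.17 (95% interval -2.87 to 0.53, adjusted p = 0.801) and Postn at -1.02 (-2.49 to 0.44, adjusted p = 0.801). The order below Thbs1 depended on the treatment of low values. Tnc was at -0.64, but at -1.36 with a pseudocount of 0.1 FPKM (adjusted p = 0.477) and -1.90 with limma-voom (adjusted p = 0.896). Thbs4 was at -1.29 and -1.33 in those fits. Sparcl1 differed by 0.55 (0.11 to 0.99, adjusted p = 0.541). Across the settings tried, Thbs1 stayed between -2.66 and -1.69, while Postn reached -0.36 and Thbs4 -0.37 without WT sham replicate 1, the library with atrial and tendon markers. Without that library Spp1 went from -0.79 to -0.15 and Thbs3 from -0.43 to -0.14.

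Under TAC, 0 of 10 members passed, where 0% of all tested genes did, 1 member and 1269 genes had an unadjusted p under 0.05, and limma-voom called 0 members. Tnc was the only member with both Cko TAC libraries above both WT TAC libraries, beside 20.3% of all tested genes, and Thbs2 the only one with both below, beside 19.4%. Tnc differed by 0.93 (SE 0.375, adjusted p = 0.533), Thbs2 by -1.07 (95% interval -2.38 to 0.23, adjusted p = 0.601) and Thbs1 by -1.22 (-2.65 to 0.20, adjusted p = 0.583). Sparc and Sparcl1 had the narrowest intervals, -0.46 to 0.75 and -0.35 to 0.53. For Spp1 the interval ran from -1.37 to 3.43 and its value turned from 1.03 to -0.70 without Cko TAC replicate 1. Without the same library the value of Tnc was 0.33. Without WT TAC replicate 1 the sign turned for 4 members: Postn went from -0.68 to 0.27, Thbs4 from -0.71 to 0.36, Fn1 from -0.37 to 0.48 and Thbs3 from -0.38 to 0.12. Thbs2 was then at -0.27 and Thbs1 at -0.46.

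Averaged over both surgeries, 0 of 10 members passed in the comparison of genotypes, where 0.00718% of all tested genes did, 2 members and 1589 genes had an unadjusted p under 0.05, and limma-voom called 0 members. Thbs1 was lower in Piezo1-Cko by a log2 difference of -1.70 (SE 0.431, adjusted p = 0.266) and Sparcl1 higher by 0.32 (SE 0.133, adjusted p = 0.423), neither past the threshold. The interaction, the response to TAC in Piezo1-Cko minus that in wild type, passed for 0 of 10 members, beside 0.00718% of all tested genes, 1 member and 664 genes had an unadjusted p under 0.05, and limma-voom called 0 members. That member was Tnc, at 1.57 (SE 0.530, adjusted p = 0.911), a value that was 1.26 with a pseudocount of 1 FPKM and 2.90 with limma-voom, and 0.97 to 2.17 when each library was left out in turn. The interaction was 1.82 for Spp1 (95% interval -1.58 to 5.22) and 0.95 for Thbs1 (-1.07 to 2.96). For Spp1 it was 0.09 without Cko TAC replicate 1 and 3.55 without Cko TAC replicate 2, and for Thbs1 1.71 without replicate 1 of WT TAC and 0.19 without its replicate 2. For Sparc it was -0.17 (-1.03 to 0.69). These comparisons share their libraries with those of TAC against sham, so their values are not separate evidence.

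**Figure D4:**
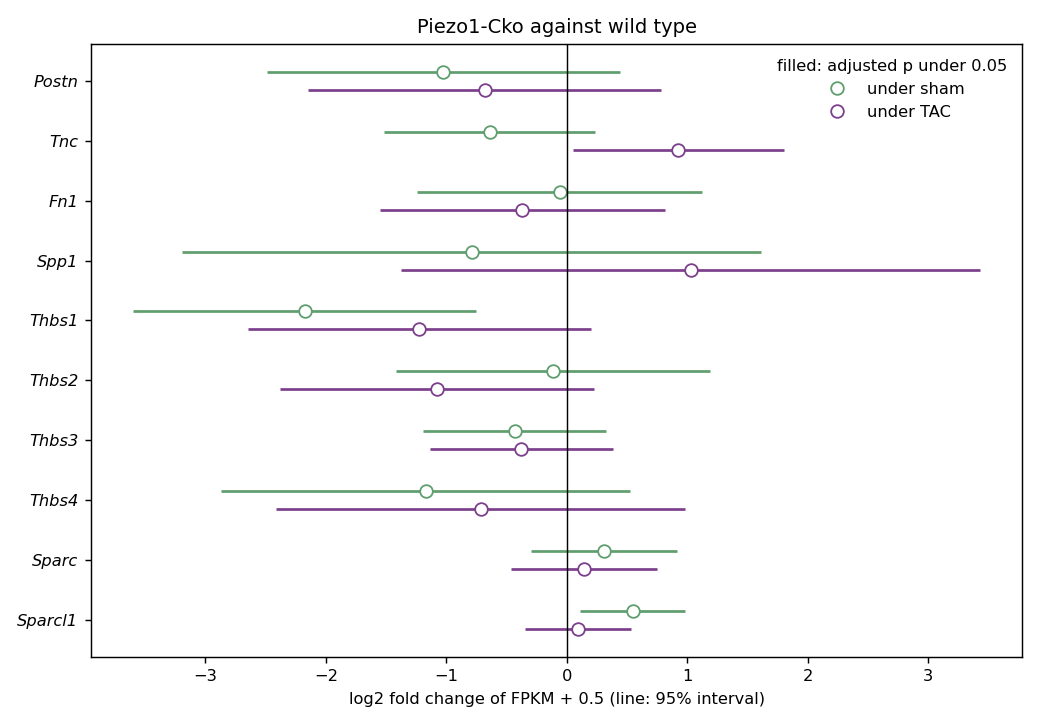
Log2 difference of FPKM + 0.5, Piezo1-Cko minus wild type, for each member under sham (green) and under TAC (purple), 2 libraries against 2 in each; lines are 95% intervals and no point has an adjusted p under 0.05. Thbs1 and Sparcl1 under sham and Tnc under TAC are the members whose interval lies off 0.

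The gap between the 2 libraries of a group was itself a pattern among the members. In WT TAC, replicate 1 was 4.41 times replicate 2 for Thbs4, 3.74 times for Postn, 3.22 times for Fn1 and 3.06 times for Thbs2 (FPKM + 0.5), but 0.666 times for Tnc and 0.931 times for Sparcl1. In WT sham the ratio was 3.05 for Thbs4, 2.51 for Postn and 2.13 for Thbs2, and 0.602 for Sparc. In both groups, then, Thbs4, Postn and Thbs2 were high in the libraries that also held Fmod and Comp, a cartilage matrix thrombospondin at 26.1 and 75.4 FPKM in them and 1.12 to 2.93 in the other 6. Replicate 1 was also the higher library for Thbs1, Spp1 and Thbs3 in both groups. The part of other tissue in these member values was not tested. In Cko TAC the gap was widest for Spp1 at 11.0 times, followed by Thbs1 at 2.58 times and Tnc at 2.30 times, while Postn was at 0.934 times. No member of Cko sham had a ratio outside 0.578 to 1.36.

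**Figure D5:**
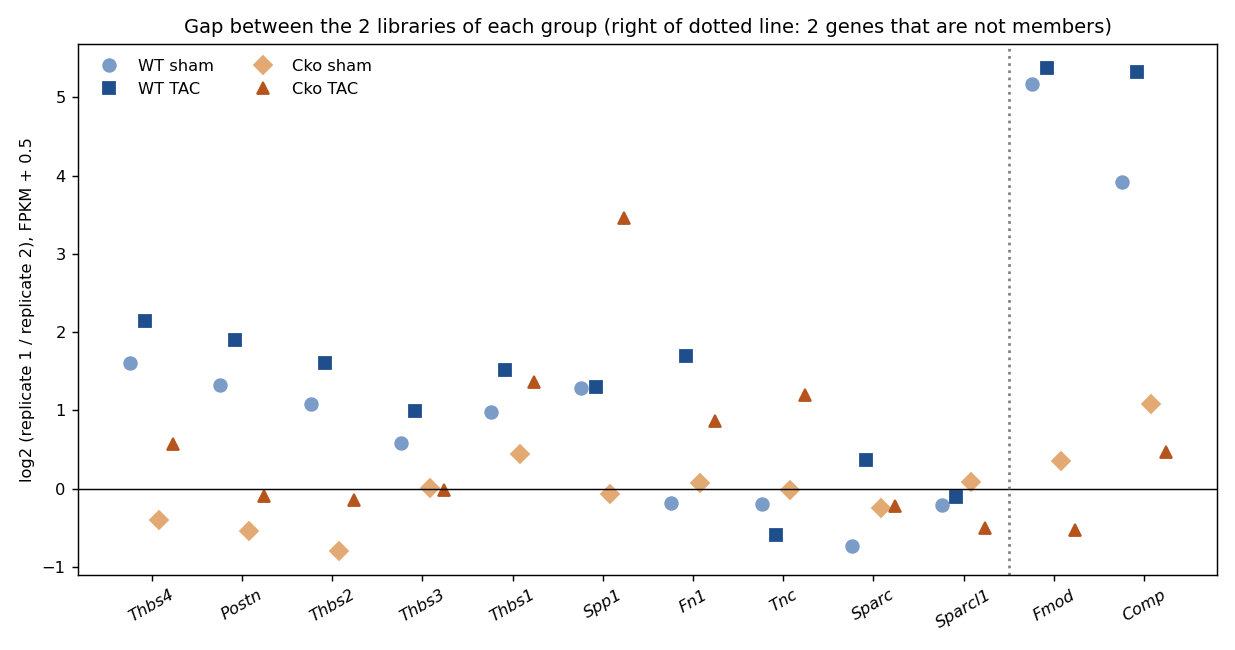
Log2 ratio of replicate 1 to replicate 2 (FPKM + 0.5) in each of the 4 groups for the 10 members and, right of the dotted line, for the non-members Fmod and Comp. The wild-type groups lie high for Thbs4, Postn and Thbs2 as for Fmod and Comp, and Cko TAC lies high for Spp1, at a ratio of 11.0.

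Once the group means were taken out, Postn ran with Thbs2, Thbs3 and Thbs4 over the 8 libraries (Pearson r of the deviations 0.987, 0.970 and 0.966), and Spp1 ran against Sparcl1 (r = -0.981). The deviations of a group of 2 mirror each other, so 4 values stand behind each r, and the members share the libraries. Over the 8 libraries as they are, Postn was nearest to Thbs4 among the members (r = 0.985). Of 10778 protein-coding genes with a mean of at least 1 FPKM, the nearest to Tnc in log2(FPKM + 0.5) was Timp1, an inhibitor of matrix metalloproteinases (r = 0.995), followed by Gdi2 (r = 0.986). Timp1 was at 8.16 and 9.37 FPKM in WT sham, 3.68 and 3.60 in Cko sham, 45.2 and 61.3 in WT TAC, and 262 and 96.7 in Cko TAC. Both Cko TAC libraries were thus above both WT TAC libraries and both Cko sham libraries below both WT sham libraries, as for Tnc. Timp1 was chosen by its correlation with Tnc over these libraries, so the shared order is no separate evidence on Tnc. Thbs4 was nearest to the collagen gene Col1a1 and the proteoglycan gene Bgn (r = 0.988 for each), and Fn1 to Gpr153 (r = 0.998) and the collagen cross-linking enzyme Lox (r = 0.992). The nearest genes were Arhgef7 and Cdc16 for Postn, Akr1b8 and Slc16a3 for Spp1, Bub1b and Mxra7 for Sparc, and Elk3 and Mindy1 for Sparcl1, with r of 0.972 to 0.989. They were Zfp91 and Atg2b for Thbs1, Eefsec and Msx1 for Thbs2, and Serpinf1 and Glod4 for Thbs3, with r of 0.968 to 0.982. With 8 libraries and that many candidates, such values are a description of these libraries.

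Other genes of the same network were read by lists, each set beside the 11.9% of all tested genes that were higher with TAC averaged over genotypes and the 13.5% that were lower. In wild type alone 5.57% of all tested genes (776) were higher, and in Piezo1-Cko alone 0.948% (132). Fewer calls in Piezo1-Cko than in wild type are thus not particular to these lists. Of 15 fibrillar matrix partners, collagens, cross-linking enzymes and proteoglycans to which the members bind or with which they are assembled, 11 were higher with TAC averaged over genotypes and none lower, with a median log2 fold change of 1.70 beside 0.01 over all genes. The collagen cross-linking enzyme Loxl2 rose 3.98-fold (adjusted p = 0.00148), the fibrillar collagen gene Col3a1 4.69-fold (adjusted p = 0.00185) and the fibrillin gene Fbn1 3.95-fold (adjusted p = 0.00272). Of the 15, 9 passed in wild type and 4 in Piezo1-Cko.

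Of 19 tested receptors for the members, 8 were higher with TAC averaged over genotypes and 2 lower, with a median of 0.33. The integrin subunit genes Itga9, Itga5 and Itgb1, whose products bind tenascin C and osteopontin, fibronectin, and several members, rose 1.91-fold (adjusted p = 0.00468), 1.79-fold (adjusted p = 0.00540) and 1.61-fold (adjusted p = 0.00588). Of the 19, 4 passed in wild type and 2 in Piezo1-Cko. Of 18 TGF-beta ligands, receptors and mediators, 6 were higher and none lower, with a median of 0.36. The receptor gene Tgfbr2 rose 1.62-fold (adjusted p = 0.00679) and the ligand gene Tgfb2 2.15-fold (adjusted p = 0.0279). Of the 18, 1 passed in wild type, near the share of all tested genes there, and 0 in Piezo1-Cko.

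Of 16 tested matricellular genes that are not among the 10 members, 4 were higher with TAC averaged over genotypes and none lower, with a median of 0.42. Fstl1, a secreted SPARC-family glycoprotein, rose 3.91-fold (adjusted p = 0.00288), from 23.9 to 37.1 FPKM over the sham libraries to 96.4 to 183 over the TAC libraries. Igfbp7, which binds insulin-like growth factors, rose 2.35-fold (adjusted p = 0.00718) and the CCN-family gene Wisp1 2.76-fold (adjusted p = 0.0285). Wisp1 was scarce, at 0.0469 to 0.480 FPKM over the sham libraries. With TAC it was at 2.72 and 0.723 FPKM in wild type and 2.35 and 0.707 in Piezo1-Cko, replicate 1 first. Of the 16, 2 passed in wild type and 1 in Piezo1-Cko. In the comparisons of Piezo1-Cko with wild type, no gene of these 4 lists passed under either surgery.

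Markers of the cells that make these proteins were counted the same way, where 11.9% of all tested genes were higher and 13.5% lower. Of 10 activated fibroblast markers, 6 were higher with TAC averaged over genotypes and none lower, and they summed to 116 to 285 FPKM in sham and 172 to 487 in TAC, with WT TAC replicate 1 highest. Acta2 alone was at 57.0 to 258 FPKM in sham and 81.4 to 153 in TAC. Comp, which marks the libraries that stand apart, is also on this list and was at 75.4 FPKM in WT TAC replicate 1. Of 10 markers of cardiac fibroblasts in general, 4 were higher and 1 lower, and they summed to 850 to 1337 FPKM in sham and 685 to 956 in TAC. Gsn alone was at 585 to 822 FPKM in sham and 255 to 370 in TAC, so these sums do not give the direction of the other markers. Of 10 endothelial markers 1 was lower and none higher, with sums of 265 to 499 FPKM in sham and 304 to 529 in TAC. Of 10 smooth muscle and pericyte markers 1 was higher and 2 lower. The endothelial and smooth muscle shares were thus near those of all tested genes. The part of fibroblasts, macrophages or vascular cells in the rise of the members was not tested.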

How the data were processed

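RNA of mouse hearts was extracted with Trizol, and libraries were made from 1 ug of total RNA with an NEBNext Ultra kit, per the labels' protocols. CASAVA 1.8, Bowtie 0.12.2, featureCounts 1.5.0-p3 and both mm8 and mm10 appear in the submitters' processing notes, which do not say how each was used. How reads were assigned to strands and how values were scaled is not given in the sources used here. The authors deposited 1 table of 54532 genes in FPKM, together with gene lengths, another column of the table. All 10 members had the coordinates of GENCODE release M21 (GRCm38).

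Multiplied by gene length, the FPKM of a library fall on steps of 1 read (tolerance 0.01 read, 100% of values above 0), from which the reads and a between-sample scaled library size were recovered. These sizes lay within 0.498% of median-of-ratios factors, each the median over genes of a library's ratio to the geometric mean. The alternative that scaled by those factors therefore nearly repeated the main fit. Mitochondrial genes took 17.6% to 24.4% of the reads. No pair of libraries in a group was a copy (chi-square per degree of freedom 17.3 to 44.2). Genes with at least 0.5 FPKM and 10 reads in at least 2 libraries were tested on log2(FPKM + 0.5) with limma 3.58.1 in R 4.3.3. All 8 libraries entered 1 model with a term per group, an intensity trend and robust moderation, leaving 4 residual and a median of 3.54 prior degrees of freedom. Adjusted p-values are two-sided, Benjamini-Hochberg over 13928 genes in each of 7 comparisons, with a threshold of 0.05. The steps were tested on simulated reads with 200 changed genes and 1 fixed dispersion for all genes and libraries. No outlying library was simulated, so that test does not speak to the ones seen here.

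Members, gene lists and tests were chosen with earlier results of these data known. Named genes are the 10 members, Piezo1, the 3 genes of each pathway list with the smallest p for TAC averaged over genotypes, and the 2 genes most correlated with each member. A gene that this rule names in the TGF-beta list is not reported here. Genes that mark the libraries that stand apart, such as Fmod, Comp, Myl7 and Sln, were named after their values were seen. Alternatives were other pseudocounts (0.1 and 1 FPKM), no filter, other scalings, limma-voom, plain moderation, fewer libraries and a replicate block.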

Additional observations from a re-analysis of the deposited data

How the results depend on the processing

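With 2 libraries a group, precision is limited by the number of libraries, and for Tnc and Spp1 in sham hearts also by low reads. The number of members called as higher with TAC averaged over genotypes was 7; it was 4 with limma-voom on the reads and ranged from 4 to 8 when each library was left out in turn. In wild type it was 4; without a filter it was 0 (247 genes called in all, against 1842), 1 with only the 4 libraries compared (272 genes), 0 with replicate 1 of WT sham and of WT TAC both left out (1 gene), and 0 to 5 when each library was left out. In Piezo1-Cko it was 2; it was 1 with a pseudocount of 1 FPKM, 0 with no filter (0 genes called in all, against 208), 1 with limma-voom (390 genes), 1 with plain moderation, 5 with only the 4 libraries compared (397 genes), 5 with replicate 1 of WT sham and of WT TAC both left out (397 genes), and 0 to 5 when each library was left out. The genotype comparisons and the interaction called 0 members under every alternative. Same-numbered libraries were correlated by 0.0256 to 0.248 in their deviations from the group means, so the numbers were not taken to pair samples. With a replicate block 7 members were called for TAC averaged over genotypes, 6 in wild type (Thbs1 and Thbs4 in addition), 3 in Piezo1-Cko (Thbs1 in addition) and 0 in the genotype comparisons and the interaction. Scaling to reads outside mitochondrial genes raised the median of all genes by 0.17 (log2) in wild type, 0.13 in Piezo1-Cko and 0.15 averaged; Sparcl1 then passed in wild type (adjusted p = 0.0475) and Postn in Piezo1-Cko (adjusted p = 0.0497). No called member changed direction under any alternative run. The causes of these changes were not tested.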
